A study of Mus musculus with 8 samples.

Results

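The kinesins are the motor proteins that walk along, cross-link or shorten microtubules using ATP. They were followed as a family in the neural tube of embryos that FVB dams with diabetes carried. Members were taken by symbol, as every listed gene named Kif or Kifc followed by a number, which gave 42 of the 26608 symbols in the files. By known role they were placed in 4 classes: 13 mitotic kinesins, 15 transport kinesins, the pair Kif26a and Kif26b, and 10 others, among them the depolymerase Kif2a and the ciliary motor Kif7. The remaining 2 symbols, Kif4b and Kifc5c-ps, are pseudogenes in current annotation and had 0 and 1 read in all. Kinesins outside this naming, such as Cenpe, were treated as partners.

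The tissue was collected by laser from cryosections at embryonic day 8.5 and profiled by SAGE, in which a transcript is counted through a short stretch close to its 3′ end. The 4 protrusion libraries (1 to 4) came from outgrowths of the open neural plate. Per the labels' morphology, protrusion 1 was separated and protrusions 2, 3 and 4 were attached. The 4 open neural tube libraries (9, 10, 13 and 14) came from tissue of normal shape at the anterior edge of closure site 1. Maternal diabetes is common to all 8 libraries, so nothing here compares diabetic with other pregnancies. The labels give no axial level for the protrusions, and position along the axis cannot be told apart from protrusion itself. Nor do they say that each library is its own embryo, and the names of protrusions 1 and 2 begin alike. A p-value here reflects variation among libraries and part of that may be technical.

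In dividing cells a set of kinesins builds and closes the mitotic spindle: some push the poles apart, some move or align chromosomes, and others assemble the midzone at which the daughter cells separate. Transport kinesins carry vesicles, organelles and ciliary cargo toward microtubule plus ends, and several are enriched in neurons. Kif26a and Kif26b form a divergent branch whose members act more in signalling and adhesion than as processive motors. In the mouse, Kif26b is known for the adhesion of kidney mesenchyme around the ureteric bud and as a target of Wnt5a-Ror signalling.

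Total counts ranged from 5668054 to 16655583 reads, so 3 reads stood for 0.180 to 0.529 CPM (counts scaled to a common library total), taken here as the floor for counting error only. Protrusion libraries held more different genes. After thinning to 5668054 reads, 14360 to 15559 genes had a read in protrusions and 9920 to 11244 in open neural tubes, and so did 36 to 40 kinesins in protrusions and 27 to 31 in open neural tubes. Among the 168 kinesin values in each group, 19 were at 0 in protrusions and 53 in open neural tubes. Summed over the 8 neural progenitor markers, the level was 459 to 997 CPM in the protrusions, against 169 to 1319 CPM in open neural tubes. Its members differed in direction, with Zic1 averaging 13.3 ± 25.2 CPM in the protrusions, against 143 ± 147 CPM in open neural tubes, and Sox3 27.5 ± 21.4 CPM in the protrusions, against 1.62 ± 1.33 CPM in open neural tubes (SD, n = 4 each). Zic1 stood at 51.0 CPM in the separated protrusion and 0.430 to 1.05 CPM in the attached ones. It stood at 4.74 CPM in open neural tube 13 and 105 to 352 CPM in the others. Sox1 and Pax6 were likewise highest in the separated protrusion within their group and lowest in open neural tube 13 within theirs. Sox3 was at 0 in the separated protrusion and 23.9 to 50.7 CPM in the attached ones. Of the neural progenitor markers, 0 of the 7 tested passed in edgeR, with 1 higher and 1 lower at an unadjusted p under 0.05. DESeq2 called Sox3 higher, limma-voom called 0, and with attached protrusions alone edgeR called Sox1 and Zic1 lower. The 8 streak and paraxial mesoderm markers summed to 422 to 1038 CPM in the protrusions, against 69.1 to 287 CPM in open neural tubes, and edgeR called Tbx6 higher. For this list DESeq2 called T and Tbx6 higher, limma-voom called 0, and with attached protrusions alone edgeR called Mixl1, T and Tbx6 higher. Neuron markers (8 genes) summed to 136 to 229.7 CPM in the protrusions, against 48.6 to 109 CPM in open neural tubes, and of 6 tested 4 had a fold change above 0 and 2 below. Among them DESeq2 called Gap43 higher, and edgeR and limma-voom called 0. Endothelial markers (7) summed to 1.29 to 34.7 CPM in the protrusions, against 7.50 to 164 CPM in open neural tubes, and all 3 tested had a fold change below 0. Kdr and Flt1 were at most 0.327 and 0.491 CPM in all 8 libraries and Dcx was at most 0.700 CPM. Erythroid markers (6) summed to 1.00 to 46.9 CPM in the protrusions, against 1.06 to 1009 CPM in open neural tubes, and surface ectoderm markers (6) to 79.6 to 167 CPM in the protrusions, against 35.3 to 282 CPM in open neural tubes. Among erythroid markers DESeq2 called Hba-x lower, and edgeR and limma-voom called 0. Where a bulk level differs, fewer cells of a type and less RNA per cell cannot be told apart.

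A SAGE value rests on the tag next to the last anchoring site of a transcript, for which kits of this type use NlaIII, cutting at CATG. The sources used here name neither the enzyme nor the tags that were counted, nor whether strand was used. In GENCODE M21 transcripts (GRCm38), each of the 40 kinesins with a protein-coding transcript had a CATG followed by at least 21 bases. Taken from the longest transcript, the 25-base stretch at the last such site occurred in transcripts of 1 gene for all 40. Those of some members the results turn on are shown because, if counted, these letters would set a kinesin apart from its relatives in such a library. The stretch of Kif5b is not shown. Capitals mark the anchoring site.
Kif26b: CATGaaaccattaagctgtgtgcaa
Kif26a: CATGagcacacaatgctttcttcca
Kif23: CATGctgacccaccaggaactagcc
Kif15: CATGtccagtttttcaaataaaatc
Kif18a: CATGtcattttactttctaaaacat
Kif1b: CATGttttattttgtaaatatctaa
Kif2a: CATGagtttttactttctaagcttc
Kifc5b, whose near copy Kifc1 is not among the listed symbols, also had a stretch of its own, but reads of Kifc1 may have been assigned to it and its level is uncertain.

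Over all genes, edgeR's quasi-likelihood test found 67 of 11036 past a Benjamini-Hochberg adjusted p of 0.05 (0.607% of those tested), 31 higher (0.281%) and 36 lower (0.326%) in protrusions. Of the 42 kinesins, 33 had enough reads to be tested, and 1 of these, Kif26b, passed. The 9 not tested were Kif1a, Kif2b, Kif4b, Kif6, Kif9, Kif13b, Kif17, Kif19a and Kifc5c-ps, all at or below 3.41 CPM in every library. The 33 were chosen by the low-count filter, which a gene can pass through the group in which it is high. Their median log2 fold change, protrusion over open neural tube, was 0.15, beside 0.08 over all genes tested. The fitted value was above 0 for 18 and below 0 for 15. At an unadjusted p under 0.05, 2 kinesins were higher and 7 lower, beside 15.3% of all genes in either direction. DESeq2 called 7 of the 33 kinesins, beside 7.2% of all genes, and limma-voom called 4 of 33, beside 3.52%. The same shares of all genes, in either direction, apply to the counts given below for each class and partner list. Differences from these shares were not tested.

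Kif26b was read in every protrusion and was nearly unread in open neural tubes. Its level was 17.5 CPM in the separated protrusion and 21.4, 9.19 and 31.7 CPM in the attached protrusions, against 0, 0, 0.06 and 0 CPM in open neural tubes 9, 10, 13 and 14. The groups lay far apart, and the separated protrusion fell inside the range of the attached ones. Together the protrusions had 625 reads and the open neural tubes had 1, a ratio of CPM of 777 with an exact 95% interval of 139 to 30741 that covers counting error only. The mean was 19.9 ± 9.36 CPM in the protrusions, against 0.015 ± 0.03 CPM in open neural tubes (SD, n = 4 each; edgeR adjusted p = 0.0111). The fitted log2 fold change of 9.07 ± 1.08 (SE) rests on that 1 read and on the prior count of the fit. Kif26b passed the low-count filter through the protrusions alone. The call ended without protrusion 4 (edgeR adjusted p = 0.0822), open neural tube 9 (0.0535) or open neural tube 14 (0.0632); with attached protrusions alone it stood at 0.0163, where 1.5% of genes were called.

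The gap in library complexity ran along with this difference. Of 3527 genes with a mean of 10 to 40 CPM in protrusions, 14 (0.397%) had at most 1 read in all 4 open neural tubes together, and Kif26b was among them. The band and the read limit were set around the values of Kif26b, so its place among the 14 was fixed in advance. Streak and presomitic markers also ran with it. T, a marker of the streak, stood at 36.8 CPM in the separated protrusion and 737, 498 and 379 CPM in the attached ones, against 0.296, 16.9, 0.300 and 6.33 CPM in open neural tubes. Tbx6, a marker of presomitic mesoderm, stood at 26.5 CPM in the separated protrusion and 158, 285 and 284 CPM in the attached ones, against 1.38, 0.529, 0.180 and 0.239 CPM in open neural tubes. Both were low in the separated protrusion beside the attached ones, where Kif26b was not. In the protrusions Mixl1 stood at 0.654 to 57.7 CPM and Msgn1 at 0 to 9.36 CPM, both lowest in the separated one. Eomes stood at 0.327 to 0.700 CPM, close to the floor. These markers were at 0 in all 4 open neural tubes. The rest of the list, Meox1, Tcf15 and Pax3, overlapped between the groups and differed in direction. Meox1 averaged 155 ± 83.0 CPM in the protrusions, against 101 ± 77.4 CPM in open neural tubes. Tcf15 averaged 25.1 ± 18.6 CPM in the protrusions, against 9.67 ± 6.44 CPM in open neural tubes. Pax3 averaged 19.0 ± 30.6 CPM in the protrusions, against 52.8 ± 44.3 CPM in open neural tubes (SD, n = 4 each). The part of complexity and of these markers in the Kif26b difference was not tested.

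Kif26a did not share the pattern. It stood at 7.36, 11.5, 5.60 and 11.7 CPM in protrusions 1 to 4, against 2.37, 24.2, 15.6 and 5.01 CPM in open neural tubes 9, 10, 13 and 14. The open neural tubes spanned the whole range of the protrusions on either side. The log2 fold change was −0.43 ± 0.77 (SE; edgeR adjusted p = 0.853), and without open neural tube 10 it was 0.21. Kif26a is known in the mouse for restraining growth of enteric neurons through the adaptor Grb2.

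**Figure D1:**
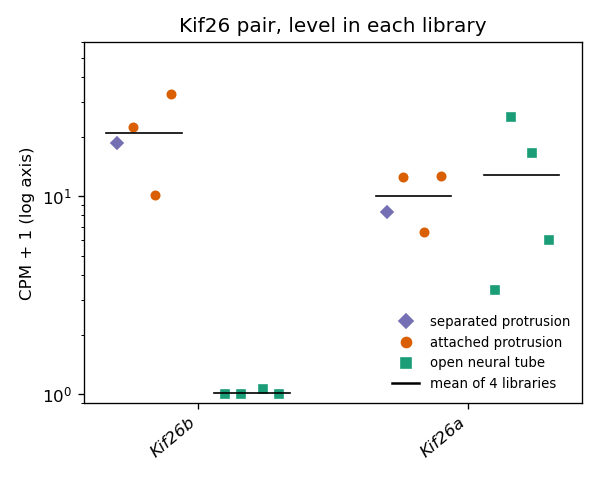
Level of Kif26b and Kif26a in each library as CPM plus 1 on a log axis, with protrusions left of open neural tubes and a bar at the mean of 4 libraries. Kif26b sits between 9.19 and 31.7 CPM in protrusions and at or near 0 in open neural tubes, while the values of Kif26a overlap.

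Partners of the Kif26 proteins gave 0 calls of 8 tested out of 9 listed, in edgeR, DESeq2 and limma-voom, with 0 higher and 1 lower at an unadjusted p under 0.05. Wnt5a, the ligand that acts on Kif26b through Ror receptors, stood at 8.18, 23.9, 31.8 and 21.8 CPM in the protrusions, against 3.95, 15.3, 10.1 and 2.87 CPM in open neural tubes. The attached protrusions lay above all open neural tubes and the separated one within their range (log2 fold change 1.32 ± 0.65 SE, edgeR adjusted p = 0.367). Grb2 averaged 298 ± 53.8 CPM in the protrusions, against 413 ± 67.3 CPM in open neural tubes (SD, n = 4 each; log2 −0.56 ± 0.20 SE, edgeR adjusted p = 0.196). Of the Ror receptors for Wnt5a, Ror2 was read in every library, at 63.3, 44.2, 94.0 and 52.2 CPM in the protrusions, against 53.9, 77.1, 29.4 and 59.5 CPM in open neural tubes, which overlapped, and Ror1 was at 0 in all 8 libraries.

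The mitotic kinesins were the most abundant class and its members differed from each other in direction. Their CPM summed to 1191, 1163, 1194 and 1103 in protrusions 1 to 4, against 1497, 1689, 1362 and 1525 in open neural tubes 9, 10, 13 and 14. Every protrusion sum lay below every open neural tube sum. Without Kif15 the sums were 723 to 899 CPM in the protrusions, against 713 to 892 CPM in open neural tubes, which overlapped. Those sums still hold Kif23, which averaged 98.4 ± 31.7 CPM in the protrusions, against 29.9 ± 14.7 CPM in open neural tubes (SD, n = 4 each). Of the 13 members, 12 were tested and 0 passed in edgeR. At an unadjusted p under 0.05, 1 was higher and 4 were lower, beside 15.3% of all genes in either direction. DESeq2 called 1 higher and 2 lower, beside 7.2%, and limma-voom called 1 higher and 1 lower, beside 3.52%. The fitted fold change was above 0 for 7 and below 0 for 5, with a median log2 of 0.18.

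Kif15 helps Kif11 to hold spindle poles apart and had the highest mean of any kinesin. It stood at 425, 440.0, 295 and 306 CPM in protrusions 1 to 4, against 784, 893, 488 and 633 CPM in open neural tubes 9, 10, 13 and 14. No protrusion reached the lowest open neural tube. The log2 fold change was −1.0 ± 0.24 (SE; edgeR adjusted p = 0.0794; DESeq2 adjusted p = 0.00420; limma-voom adjusted p = 0.0377). It made up 24.7% to 37.8% of the mitotic kinesin reads, on the CPM scale, in protrusions and 35.8% to 52.9% in open neural tubes.

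Kif23, the motor of the centralspindlin complex that organises the midzone during cytokinesis, lay higher in protrusions. Its level was 55.6, 109.5, 131 and 97.5 CPM in protrusions 1 to 4, against 16.6, 24.7, 27.4 and 50.9 CPM in open neural tubes 9, 10, 13 and 14. The groups did not overlap, with the separated protrusion just above open neural tube 14 and below the attached protrusions. The log2 fold change was 1.62 ± 0.38 (SE; edgeR adjusted p = 0.0794; DESeq2 adjusted p = 0.00326; limma-voom adjusted p = 0.0315). The ratio of Kif23 to Kif15 within a library, chosen after its values were seen, was 0.131 in the separated protrusion and 0.249 to 0.444 in the attached ones, against 0.0212 to 0.0804 in open neural tubes.

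Kif18a, which damps chromosome movement and aligns chromosomes on the metaphase plate, stood at 124, 82.7, 62.1 and 100.4 CPM in the protrusions, against 151, 145, 153 and 154 CPM in open neural tubes. The open neural tubes agreed closely (151 ± 4.06 CPM, SD, n = 4) and every protrusion lay below them (92.2 ± 26.2 CPM). The log2 fold change was −0.79 ± 0.24 (SE; edgeR adjusted p = 0.142; DESeq2 adjusted p = 0.0484; limma-voom adjusted p = 0.0668). Kif2c, which removes tubulin from microtubule ends at centromeres, stood at 191, 118, 143 and 173 CPM in protrusions and 181, 214, 263 and 254 CPM in open neural tubes. The separated protrusion lay above open neural tube 9, so the groups overlapped (log2 −0.63 ± 0.21 SE, edgeR adjusted p = 0.175).

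The other mitotic kinesins overlapped between the groups. Kif20a, a motor of the midzone, averaged 92.9 ± 34.7 CPM in the protrusions, against 129.7 ± 11.6 CPM in open neural tubes, and Kif11, which slides spindle poles apart, 99.6 ± 32.8 CPM in the protrusions, against 76.1 ± 36.2 CPM in open neural tubes (SD, n = 4 each). Kif22, which binds chromosome arms, averaged 95.8 ± 33.1 CPM in the protrusions, against 79.6 ± 21.7 CPM in open neural tubes, and the chromosome-bound Kif4 57.0 ± 10.9 CPM in the protrusions, against 55.7 ± 20.1 CPM in open neural tubes. Kif18b, which shortens astral microtubules, Kifc5b, a minus-end-directed motor, and Kif20b and Kif14 of cytokinesis averaged 10.8 to 50.1 CPM in the protrusions, against 2.86 to 33.4 CPM in open neural tubes. Kif2b had 0 reads in all libraries.

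**Figure D2:**
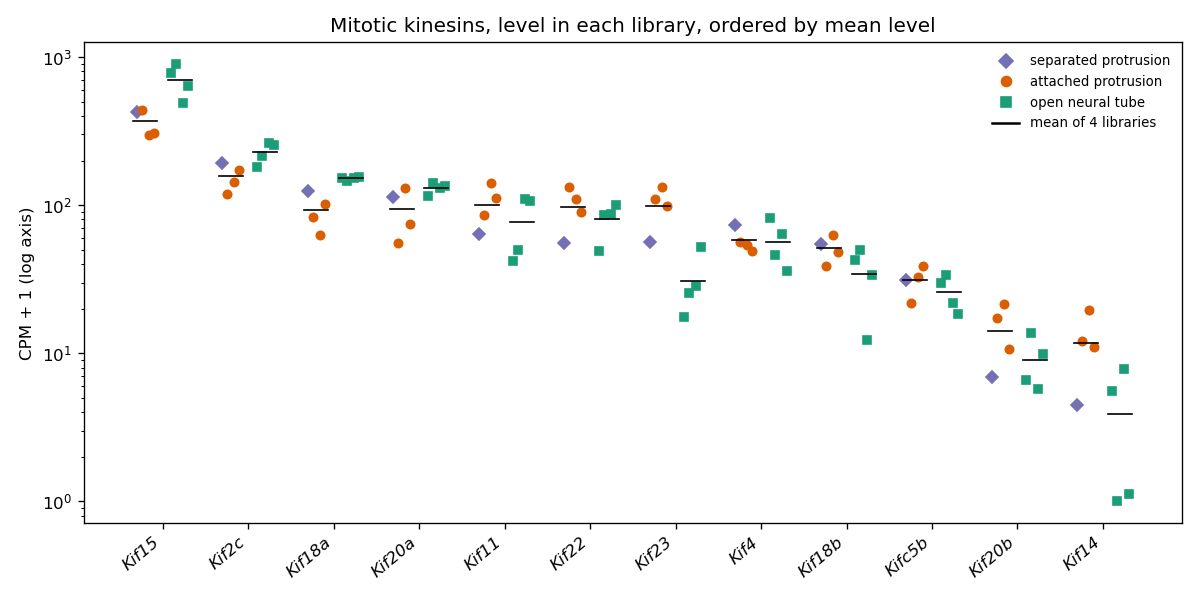
Level of the 12 mitotic kinesins with reads, in each library, as CPM plus 1 on a log axis, with protrusions left of open neural tubes. Kif15 and Kif18a lie lower and Kif23 higher in all 4 protrusions than in any open neural tube, and the other 9 overlap.

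Of 22 listed mitotic partners, all tested, edgeR called 0 higher and 1 lower, with a median log2 fold change of −0.15. The fitted fold change was above 0 for 9 and below 0 for 13. At an unadjusted p under 0.05, 1 was higher and 6 were lower. DESeq2 called 0 higher and 2 lower, Birc5 and Cdk1, and limma-voom 0 higher and 1 lower. Plk1 alone lay higher in all protrusions than in any open neural tube, and 3 lay lower, beside 8.84% and 4.55% of all genes tested. Cdk1, the kinase that drives entry into mitosis, stood at 914, 873, 762 and 853 CPM in the protrusions, against 1464, 1581, 1704 and 1436 CPM in open neural tubes. No protrusion came near the lowest open neural tube. Cdk1 fell by 0.95 on the log2 scale (SE 0.15; edgeR adjusted p = 0.0385), a call that ended without each library except protrusion 1 (adjusted p of 0.0531 to 0.127). Tubulin genes (8 of 10 tested) had 0 calls in edgeR, 2 higher and 1 lower at an unadjusted p under 0.05, 1 higher in DESeq2 and 0 in limma-voom. Tuba1c averaged 808 ± 41.5 CPM in the protrusions, against 459 ± 136 CPM in open neural tubes (log2 0.72 ± 0.21 SE, edgeR adjusted p = 0.119), and Tubb2a 35.2 ± 8.11 CPM in the protrusions, against 58.6 ± 9.72 CPM in open neural tubes (SD, n = 4 each; edgeR adjusted p = 0.166).

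Promoters of the mitotic class share a feature that did not enter the choice of members. The letters TTTGAA are those of the cell-cycle homology region, a site through which repressors hold mitotic genes silent outside G2 and mitosis, and CCAAT is the box bound by NF-Y that often lies nearby. In RefSeq promoter windows (GRCm38.p6, 250 bases before to 50 after a start, either strand), 10 of the 12 mitotic kinesins with a window held TTTGAA, against 20.2% of 27025 genes. Of the transport kinesins 1 of 10 held it, and of the other kinesins 1 of 8. CCAAT was in 8 of the 12 mitotic kinesins and in 41.1% of all genes. Windows were at hand for 32 kinesins. The promoters of Kif26b, Kif23 and Kif15, in 280 bases each from 250 before the start, are shown because these members differ in direction while all hold TTTGAA; capitals mark TTTGAA and CCAAT in either orientation, which do not overlap.
Kif26b: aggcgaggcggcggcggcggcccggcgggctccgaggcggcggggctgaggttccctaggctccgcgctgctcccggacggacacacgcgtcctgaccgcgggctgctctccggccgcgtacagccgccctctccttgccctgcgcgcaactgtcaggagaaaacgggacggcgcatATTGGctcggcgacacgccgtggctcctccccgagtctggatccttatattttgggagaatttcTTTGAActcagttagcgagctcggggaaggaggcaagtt
Kif23: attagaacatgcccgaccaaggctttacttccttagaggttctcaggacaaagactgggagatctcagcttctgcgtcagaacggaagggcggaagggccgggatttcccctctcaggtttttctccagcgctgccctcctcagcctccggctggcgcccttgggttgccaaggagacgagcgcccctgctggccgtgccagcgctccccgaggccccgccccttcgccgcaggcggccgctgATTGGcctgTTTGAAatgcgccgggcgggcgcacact
Kif15: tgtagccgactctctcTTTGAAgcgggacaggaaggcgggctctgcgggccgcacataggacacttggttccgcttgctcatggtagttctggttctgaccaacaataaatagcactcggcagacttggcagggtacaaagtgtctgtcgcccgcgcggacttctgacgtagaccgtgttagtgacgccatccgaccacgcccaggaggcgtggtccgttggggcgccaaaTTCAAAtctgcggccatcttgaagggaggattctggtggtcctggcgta
The windows lie at chr1:178528875-178529154 on the plus strand for Kif26b, chr9:61946770-61947049 on the minus strand for Kif23, and chr9:122950831-122951110 on the plus strand for Kif15. Kif15, at lower levels in protrusions, held TTTGAA at 2 places and no CCAAT, and Kif23, at higher levels, held each at 1 place. Kif18a held neither. A match is a run of letters and not a bound site.

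The transport kinesins were led by Kif5b and Kif1b in both groups. Their CPM summed to 482, 356, 538 and 473 in protrusions, against 615, 674, 749 and 714 in open neural tubes, with every protrusion below every open neural tube. Without Kif5b and Kif1b, the most abundant members, the sums were 114 to 194 CPM in the protrusions, against 102 to 190.0 CPM in open neural tubes. Of 15 members, 12 were tested and edgeR called 0. At an unadjusted p under 0.05, 0 were higher and 2 lower, DESeq2 called 2 lower and limma-voom 0. The median log2 fold change was −0.33, with 5 above 0 and 7 below.

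Kif5b, the heavy chain of conventional kinesin in most cells, stood at 210.1, 152, 228 and 227 CPM in the protrusions, against 275, 269, 497 and 338 CPM in open neural tubes. The groups did not overlap, by a gap smaller than the range inside either (log2 −0.86 ± 0.24 SE, edgeR adjusted p = 0.104, DESeq2 adjusted p = 0.0207). Kif1b, a carrier of mitochondria and synaptic vesicle precursors, stood at 158, 76.7, 116 and 107 CPM in protrusions and 239, 216, 126 and 257 CPM in open neural tubes. Open neural tube 13 lay among the protrusions (log2 −0.96 ± 0.28 SE, edgeR adjusted p = 0.113, DESeq2 adjusted p = 0.0308). Without it and the separated protrusion, a setting chosen after seeing the data, the log2 fold change was −1.35 and edgeR called Kif1b (adjusted p = 0.0316).

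Kif1c, a vesicle carrier, had 22.4 CPM in the separated protrusion and 48.2, 50.7 and 46.9 CPM in the attached ones, against 24.7, 17.5, 26.2 and 34.7 CPM in open neural tubes. The attached protrusions lay above all open neural tubes and the separated one inside their range (log2 0.60 ± 0.35 SE, edgeR adjusted p = 0.475). Kif3a, the kinesin-2 subunit needed to build cilia, averaged 27.7 ± 4.99 CPM in the protrusions, against 37.6 ± 10.9 CPM in open neural tubes (log2 −0.53 ± 0.30 SE, edgeR adjusted p = 0.465), and its partner Kif3b 7.32 ± 3.34 CPM in the protrusions, against 11.6 ± 11.4 CPM in open neural tubes (SD, n = 4 each). Kif5c, Kif13a, Kif3c, Kif5a, Kif16b, Kifc2 and Kifc3 averaged 3.38 to 18.7 CPM in the protrusions, against 2.38 to 25.0 CPM in open neural tubes, and all overlapped. The neuronal motor Kif1a averaged 0.753 ± 0.120 CPM in the protrusions, against 1.13 ± 1.31 CPM in open neural tubes. Kif13b and Kif17 had 14 and 13 reads in protrusions and 0 in open neural tubes, too few to test.

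**Figure D3:**
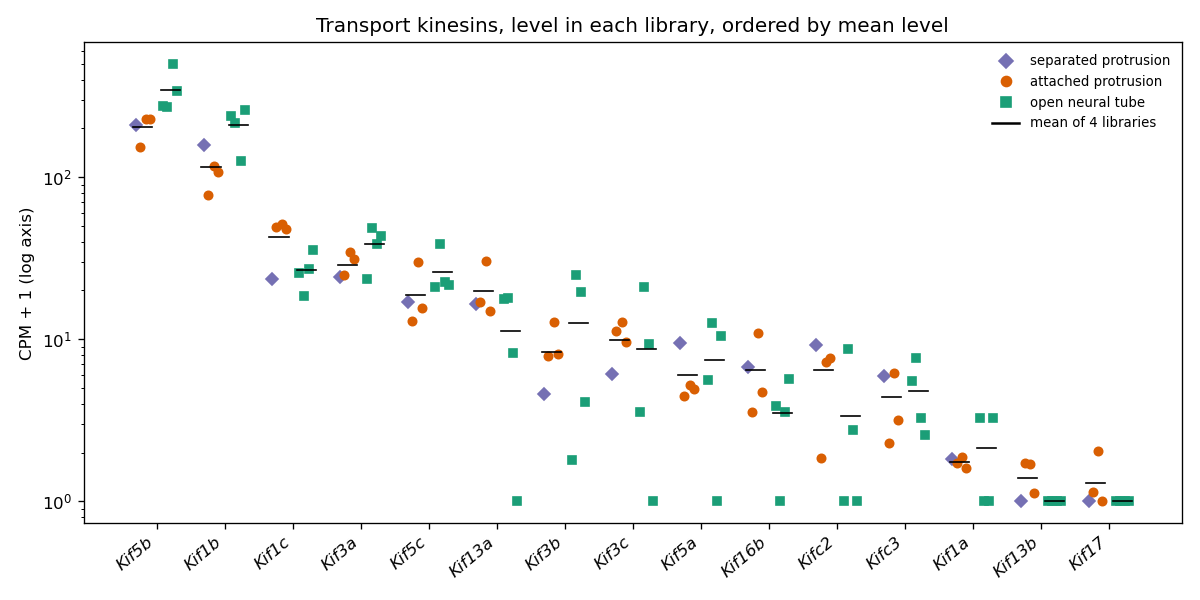
Level of the 15 transport kinesins in each library as CPM plus 1 on a log axis, with protrusions left of open neural tubes. Kif5b lies lower in all 4 protrusions, Kif1b overlaps through open neural tube 13, and several members under 20 CPM reach 0 in open neural tubes.

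Cargo partners of the transport kinesins (14 tested of 16 listed) had 0 calls in edgeR, 1 higher and 3 lower at an unadjusted p under 0.05. DESeq2 called 1 higher and 3 lower, and limma-voom 1 higher and 1 lower. Klc3, a kinesin light chain, stood at 4.91, 4.30, 7.26 and 1.80 CPM in protrusions and at 0 in all 4 open neural tubes (edgeR adjusted p = 0.0785). It passed the low-count filter through the protrusions alone, and open neural tube libraries held fewer different genes. The part of library complexity was not tested. Kifap3, the cargo-binding subunit that joins Kif3a and Kif3b, stood at 142, 109, 100.3 and 81.1 CPM in the protrusions, against 166, 188, 188 and 185 CPM in open neural tubes. Every protrusion lay below them (log2 −0.83 ± 0.21 SE, edgeR adjusted p = 0.0832), and with attached protrusions alone edgeR called it (adjusted p = 0.0468). Of 21 listed genes of dynein and dynactin, which move cargo the opposite way, 20 were tested and edgeR and limma-voom called 0, with 2 higher and 3 lower at an unadjusted p under 0.05 and 2 lower in DESeq2. Dync1i2 averaged 174 ± 23.6 CPM in the protrusions, against 274 ± 58.0 CPM in open neural tubes (edgeR adjusted p = 0.0876), and Dynll1 104 ± 18.1 CPM in the protrusions, against 171 ± 26.6 CPM in open neural tubes (SD, n = 4 each; edgeR adjusted p = 0.0939).

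Among the other kinesins Kif2a, which shortens microtubules at spindle poles and in growing neurons, held 70.5% to 79.6% of the class in protrusions and 83.8% to 92.8% in open neural tubes. It stood at 205, 173, 167 and 206 CPM in the protrusions, against 356, 323, 276 and 299.8 CPM in open neural tubes. No protrusion came within the open neural tube range. The log2 fold change was −0.83 ± 0.17 (SE; edgeR adjusted p = 0.0639), and Kif2a was called by DESeq2 (adjusted p = 0.000697), by limma-voom (0.0325) and by edgeR when genes under a mean of 20 CPM were left out (0.0327). In the fit without the lower genes 2.83% were called. Over the 10 members 7 were tested, edgeR called 0, and at an unadjusted p under 0.05, 0 were higher and 1 was lower.

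Kif7, which works at the tip of the cilium in Hedgehog signalling, stood at 2.13, 12.9, 13.9 and 7.45 CPM in the protrusions, against 0, 16.2, 4.50 and 9.79 CPM in open neural tubes, and the groups overlapped throughout (log2 0.19 ± 1.23 SE, edgeR adjusted p = 0.970). Kif21b, a regulator of microtubule growth, stood at 43.7, 24.8, 33.9 and 36.5 CPM in the protrusions, against 22.1, 36.7, 41.1 and 8.12 CPM in open neural tubes (log2 0.27 ± 0.46 SE, edgeR adjusted p = 0.845). Kif24, which restrains cilium formation, averaged 1.05 ± 1.01 CPM in the protrusions, against 2.06 ± 2.33 CPM in open neural tubes (SD, n = 4 each; edgeR adjusted p = 0.826). Both overlapped between the groups. Kif12, Kif21a, Kif27 and Kif9 averaged 1.53 to 3.32 CPM in the protrusions, against 0.420 to 2.21 CPM in open neural tubes, and Kif6 and Kif19a at most 0.169 CPM.

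Of 20 cilium and Hedgehog partners, all tested, edgeR called 0, with 1 higher and 1 lower at an unadjusted p under 0.05, and DESeq2 and limma-voom each called 1 higher and 1 lower. Gli2, a transcription factor of the Hedgehog pathway, stood at 232, 174, 141 and 135 CPM in the protrusions, against 275, 319, 284 and 324 CPM in open neural tubes. The groups did not overlap (log2 −0.90 ± 0.21 SE, edgeR adjusted p = 0.0794), and with attached protrusions alone edgeR called it (adjusted p = 0.0345). Sufu, an inhibitor of Gli proteins, stood at 1.96 to 7.79 CPM in protrusions and at 0 in all 4 open neural tubes (edgeR adjusted p = 0.0794). It passed the low-count filter through the protrusions alone. Open neural tube libraries held fewer different genes, so 0 reads of so low a gene do not show its absence there. The part of library complexity was not tested.

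Across the family, 2 of 33 tested members lay higher in all protrusions than in any open neural tube and 4 of 33 lay lower, beside 8.84% and 4.55% of all genes tested. The 2 were Kif26b and Kif23, and the 4 were Kif15, Kif18a, Kif5b and Kif2a. Among members with a mean of at least 20 CPM over all libraries, 1 of 17 lay higher and 4 of 17 lower, beside 8.6% and 7.58% of 5584 genes. The share that lay lower was above that of all genes and was not tested. The median log2 fold change of these 17 was −0.53, beside −0.04 over the 5584. Summed over all 42 symbols, kinesins stood at 1956, 1769.5, 1983 and 1879 CPM in the protrusions, against 2508, 2774, 2449 and 2567 CPM in open neural tubes. A few abundant members weigh on this sum. Without Kif15, and with Kif23 kept, the mitotic sums overlapped between the groups, and so did the transport sums without Kif5b and Kif1b. Kif2a held at least 70.5% of the other class in every library. Of the 33 tested members, 18 had a fitted fold change above 0 and 15 below.

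**Figure D4:**
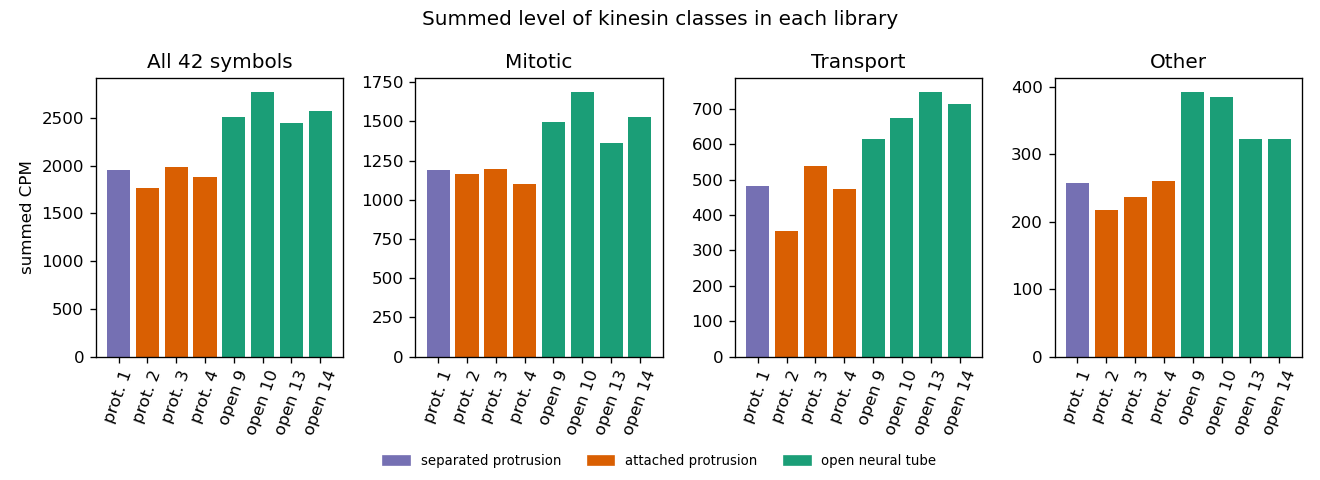
Summed CPM of all 42 kinesin symbols and of the mitotic, transport and other classes, 1 bar per library, with protrusions left of open neural tubes. Every protrusion bar is lower than every open neural tube bar in all 4 panels. A few abundant members, Kif15, Kif5b, Kif1b and Kif2a, weigh on these sums.

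**Figure D5:**
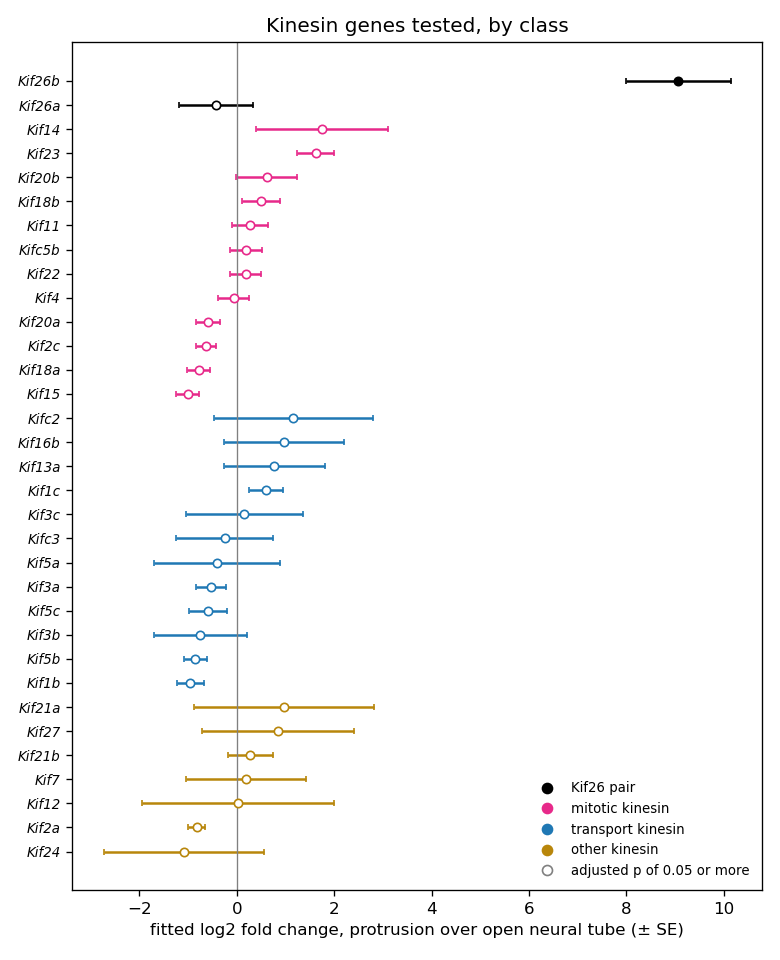
Fitted log2 fold change, protrusion over open neural tube, of the 33 tested kinesins with its standard error, grouped by class; filled points have an edgeR adjusted p under 0.05. Kif26b at 9.07 is the filled point, and among the open points Kif23 lies at 1.62 and Kif2a at −0.83.

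The separated protrusion was set beside the attached ones, as a description, since 1 library allows no test. Among the 26 kinesins with a mean of at least 5 CPM, it lay above all 3 attached protrusions for 6 (23.1%) and below them for 10 (38.5%). These shares lay near those of all 8866 genes of that level, 30.0% and 32.8%, so they are not a result about kinesins. It was above them for Kif18a, Kif2c, Kif4, Kif1b, Kif5a and Kif21b. Among mitotic members it was below them for Kif11, Kif14, Kif20b, Kif22 and Kif23, and among transport members for Kif1c, Kif3a, Kif3b and Kif3c, besides Kif7. Kif22 stood at 54.2 CPM in the separated protrusion, against 132, 108 and 88.2 CPM in the attached ones. Kif4 stood at 72.6 CPM in the separated protrusion, against 55.1, 52.4 and 47.8 CPM in the attached ones.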

How the data were processed

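SAGE libraries were analysed for 4 protrusions and 4 open neural tubes. Per the labels' protocols they were made from 7 to 12 ng of total RNA each with a SOLiD SAGE kit. The authors deposited whole-number counts per gene symbol, with no normalization, and mm9 is the build named in the submitters' processing notes. The sources used here do not give the aligner, how tags were assigned to genes or whether strand was used. PCR copies cannot be told from separate molecules, so intervals and floors cover counting error only. SAGE gives about 1 tag a transcript, so levels were not scaled by length.

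CPM values are counts scaled to the library total. Groups came from the source names. The test was edgeR 4.0.16 under R 4.3.3 (filterByExpr with a minimum count of 10, TMM factors, robust quasi-likelihood F test, 2-sided, Benjamini-Hochberg adjustment over all genes, threshold 0.05); standard errors were derived from the F statistic. DESeq2 1.42.0, limma 3.58.1 (voom) and other scalings, filters and left-out libraries were alternatives. The scripts were tested on simulated data. In any pair of libraries at most 0.803% of the genes above 20 reads in both had equal counts. Partner symbols missing from the files were matched through RefSeq synonyms.

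The family, its classes, the partner and marker lists and the tests were chosen with earlier results of these data known. Genes named with tests were those past the threshold, the Kif26 pair, in each other class the 3 with the smallest p and the 3 with the highest mean, and in each partner list those past the threshold or else the 2 with the smallest p; other kinesins are given by mean or range.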

Additional observations from a re-analysis of the deposited data

Results flagged for a closer look

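In 8 of 82 groups of 4 libraries, 1 library stood far from the other 3, with a gap past Dixon's 95% critical value. For normally distributed values chance gives about 1 in 20, and whether these values are so distributed was not checked. Among the protrusions, Kif13a stood at 29.6 CPM in protrusion 3, against 13.9 to 15.9 CPM in the others. In the separated protrusion Kif1c stood at 22.4 CPM, Kif5a at 8.51 CPM and Grb2 at 377 CPM, against 46.9 to 50.7, 3.44 to 4.20 and 265 to 284 CPM in the attached ones. Among the open neural tubes, Kif26b stood at 0.06 CPM, 1 read, in open neural tube 13 and at 0 in the others. With the others all at 0, any read would be flagged, so this flag carries no information. Kif5c stood at 37.8 CPM in open neural tube 10, Kifap3 at 166 CPM in open neural tube 9 and Tuba1c at 661 CPM in open neural tube 13, against 20.1 to 21.6, 185 to 188 and 369 to 409 CPM in the others. The cause was not tested for any of them.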

How the results depend on the processing

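Over all genes, 67 calls (31 higher, 36 lower) became 158 (57 and 101) with a mean of at least 20 CPM, 795 (408 and 387) with DESeq2 and 389 (228 and 161) with limma-voom; without a scaling factor 49 were higher. Leaving out a library gave 1 to 172 calls, 1 to 87 higher and 0 to 85 lower. Leaving out the separated protrusion and open neural tube 13 together, chosen after seeing the data, gave 211 (115 and 96). For kinesins, 1 call, higher, became 7 with DESeq2 (2 higher, 5 lower), 4 with limma-voom (2 and 2), and with a mean of at least 20 CPM 0 higher and 1 lower, where Kif26b was not tested. Leaving out a library gave 0 to 1 kinesin call, 0 to 1 higher and 0 lower. With both libraries out there were 2, of which 1 was lower. The median log2 fold change moved with limma-voom to 0.32 for transport kinesins and 1.76 for other kinesins; leaving out a library gave 0.13 to 0.28 for mitotic, −0.49 to 0.11 for transport and −0.19 to 0.53 for other kinesins. Without a library the log2 fold change changed sign for Kif26a (−0.72 to 0.21) and Kif7 (−0.19 to 0.89), neither of them called. Of 368 repeats over 25 named genes, 326 kept direction and side of the threshold, 28 gained a call, 10 lost one and 4 changed sign. Over all genes the median log2 fold change was 0.08, and 0.17 without a scaling factor, 0.47 without a low-count filter and 0.35 with limma-voom. The cause of these shifts was not tested. No paired analysis was possible because the groups share no replicate numbers. Many members under about 5 CPM were at 0 in open neural tubes. Open neural tube 13, the deepest library at 16655583 reads, had reads of 29 kinesins, against 37 in protrusion 1 at 6112477 reads. Both numbers stayed the same after thinning to 5668054 reads. Kif13a, Kif3c and Kif7 averaged 14.5, 8.32 and 8.36 CPM over all libraries, and each had no read in 1 open neural tube. The cause of these missing reads was not tested.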
